A study of Mus musculus with 12 samples.

Results

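The mammalian ZnT proteins, encoded by the *Slc30* genes, move zinc, and in the case of ZnT10 manganese, across membranes, most of them out of the cytosol, either through the plasma membrane or into vesicles and organelles. The deposited table of liver read counts was searched by symbol for 7 of these genes, *Slc30a1*, *Slc30a4*, *Slc30a5*, *Slc30a6*, *Slc30a7*, *Slc30a9* and *Slc30a10*, and all 7 were found among its 54838 genes. They are described here across 4 groups of 3 female C57BL/6J mice, aged 8 to 14 weeks, with 1 liver RNA library per mouse. For 7 days the drinking bottles held either normal water or water to which 25 mM ZnSO4 had been added. The mice were then injected with PBS, with or without 200 µg dexamethasone (Dex, an agonist of the glucocorticoid receptor), and livers were sampled 2 h later. The control group is called water-PBS, and the treated groups zinc-PBS, water-Dex and, for both agents, zinc-Dex. The mice carried no engineered allele. The design asks what zinc does with and without Dex, what Dex does with and without zinc, and whether one effect depends on the other.

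Cells keep cytosolic zinc low by binding it to metallothioneins and by exporting it through ZnT proteins, while ZIP proteins, encoded by *Slc39* genes, bring it in. ZnT1 (*Slc30a1*) sits in the plasma membrane and its gene is a classical target of the zinc-sensing transcription factor MTF1, which binds metal response elements in promoters. ZnT10 (*Slc30a10*) exports manganese, and in the liver it serves the excretion of manganese into bile. ZnT4 loads zinc into vesicles, the ZnT5 and ZnT6 complex and ZnT7 deliver zinc to the early secretory pathway, where enzymes such as alkaline phosphatase take it up, and ZnT9 (*Slc30a9*) exports zinc from mitochondria.

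Libraries held 9091152 to 12303527 counts. Counts are given as normalized counts, that is, divided by DESeq2 size factors. A gene passed when its p from the DESeq2 Wald test, adjusted over all genes tested, was under 0.05. The markers of hepatocytes were all present, and their summed level (*Alb*, *Ttr*, *Apoa1*, *Fgb* and *Hnf4a*) was 1131711 to 1345273 in the 6 PBS-injected and 1498781 to 1632938 in the 6 Dex-injected livers, which did not overlap. The highest of these 5 markers averaged 1188906 normalized counts and the lowest 9337, so this sum rested largely on a single gene. Of 5 pancreas markers, 3 were at 0 in all libraries and the sum was at most 11.1. The size factor per 1000000 counts was 0.0953 to 0.1002 in PBS-injected and 0.0816 to 0.0863 in Dex-injected livers, so scaling to total counts instead shifted the median log2 fold change of all genes by -0.19 to -0.24 in the Dex contrasts. In bulk liver RNA, fewer cells of a type and less RNA per cell cannot be told apart.

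*Slc30a1* and *Slc30a10* carried the results, and both lie on the plus strand of chromosome 1, with 6438004 bases between them. The sequence upstream of the RefSeq start of each is shown because the zinc contrasts moved them in opposite directions. Capitals mark matches to the core of the metal response element, searched as TGCACNC or TGCGCNC on both strands. The *Slc30a1* stretch, chr1:191906531-191906766 on the plus strand of GRCm38.p6 (RefSeq), holds 1 match, on the other strand, and stops where the GENCODE gene begins. The *Slc30a10* stretch, chr1:185454598-185454847 on the plus strand of the same build, holds 3 matches, of which the first and second overlap.
Slc30a1: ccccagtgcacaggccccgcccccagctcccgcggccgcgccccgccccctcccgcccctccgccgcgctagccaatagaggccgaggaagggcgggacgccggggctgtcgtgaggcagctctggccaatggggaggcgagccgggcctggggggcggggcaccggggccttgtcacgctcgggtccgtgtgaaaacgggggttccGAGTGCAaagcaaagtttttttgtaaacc
Slc30a10: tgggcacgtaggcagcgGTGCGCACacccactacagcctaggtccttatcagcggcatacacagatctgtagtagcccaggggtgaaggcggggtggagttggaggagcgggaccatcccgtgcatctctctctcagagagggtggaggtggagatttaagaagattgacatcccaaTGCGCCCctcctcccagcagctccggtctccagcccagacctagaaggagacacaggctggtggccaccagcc
In the full 250 bases before the start, the match of *Slc30a1* lay at -43 to -37, and those of *Slc30a10* at -233 to -227 (other strand), -232 to -226 and -73 to -67. *Slc30a4* had 2 matches and *Slc30a5* had 1, whereas *Slc30a6*, *Slc30a7* and *Slc30a9* had none in this window. Of all 32817 mouse promoters of the same length, 21.4% held at least 1 match, 5.18% at least 2 and 1.26% at least 3. The glucocorticoid response element, searched only as the exact form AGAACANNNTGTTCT, occurred in none of the 7 windows and in 0.00914% of all promoters. With so rare a form, absence from the 7 windows was near certain beforehand and is not read as a result. A match is a description of letters and not of a bound site.

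**Figure D1:**
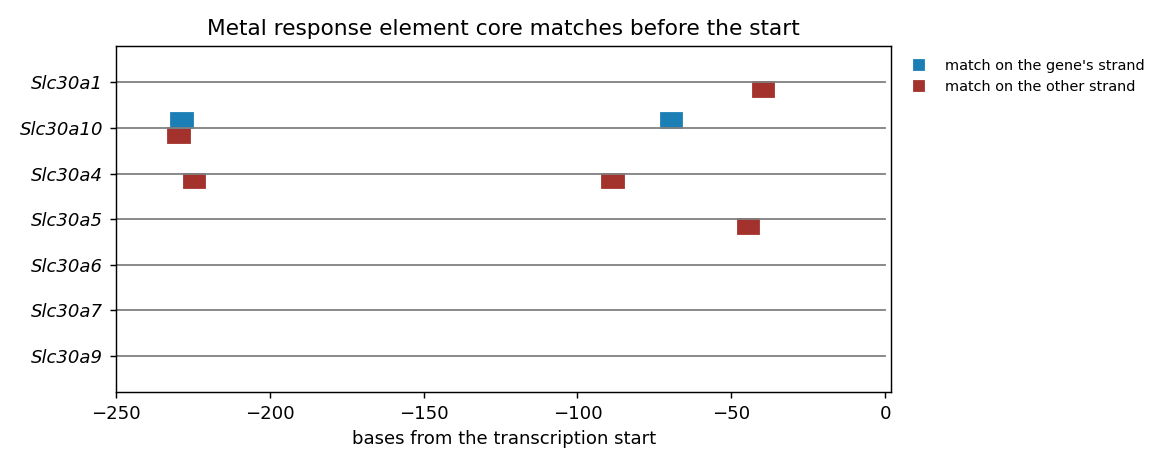
Positions of metal response element core matches in the 250 bases before the RefSeq start of the 7 genes, in bases from the start, with matches on the gene's strand above each line and those on the other strand below it. *Slc30a10* holds 3 matches, *Slc30a4* 2, *Slc30a1* and *Slc30a5* 1 each, and the other 3 genes hold none.

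Per transcript length, in water-PBS livers, *Slc30a10* and *Slc30a1* were the most abundant of the 7 exporters. In reads per kb of exon and 1000000 counts (RPKM, mean ± SD, n = 3) the level of *Slc30a10* was 12.9 ± 1.79 and that of *Slc30a1* 10.4 ± 2.10, and their libraries overlapped. *Slc30a5* (6.75 ± 0.733) and *Slc30a9* (5.94 ± 0.246) followed, and overlapped neither the first pair nor each other. *Slc30a6* (3.66 ± 0.303) and *Slc30a4* (3.41 ± 0.136) overlapped each other, and *Slc30a7* was lowest at 2.55 ± 0.127. Set against 11664 protein-coding genes whose mean reached 10 normalized counts, the RPKM of *Slc30a10* stood above 78.7% and that of *Slc30a7* above 38.8%. The 3 other *Slc30* genes of the table were barely detected. *Slc30a2* (a vesicular zinc transporter) had 0 to 5 raw counts per library and 0 in all 6 Dex-injected livers, *Slc30a3* (synaptic vesicles) had 0 to 8, and *Slc30a8* (insulin granules) had 0 to 5.

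**Figure D2:**
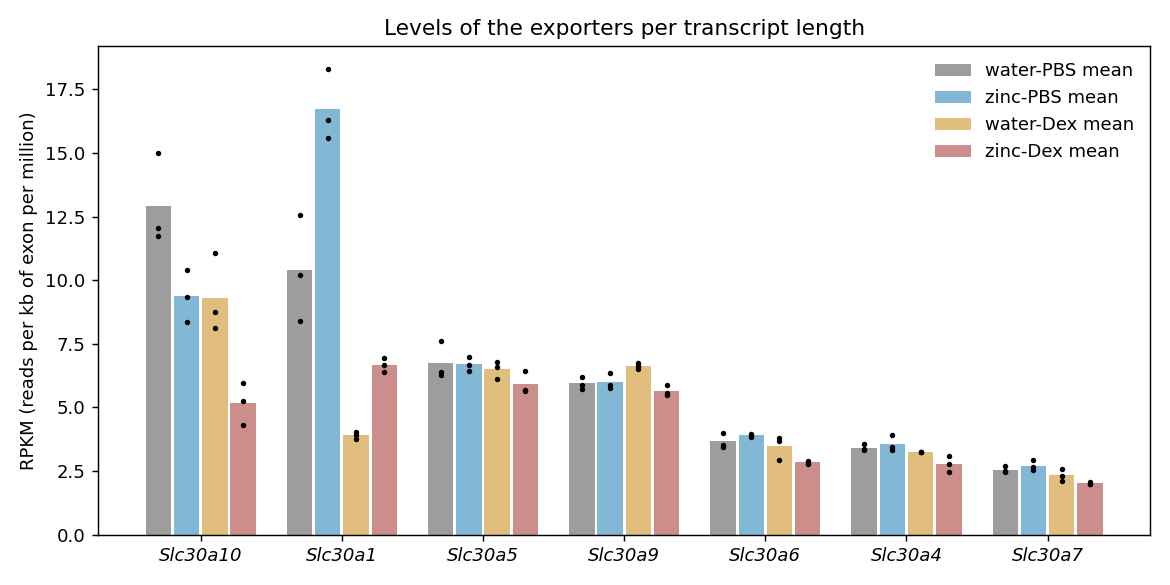
RPKM of the 7 exporters by group, with bars at the mean of 3 mice and dots for single mice, ordered by the water-PBS mean. *Slc30a1* ranges from a mean of 3.91 in water-Dex to 16.7 in zinc-PBS, while the group means of *Slc30a5*, *Slc30a6*, *Slc30a4* and *Slc30a7* differ by at most 1.37 times. RPKM is scaled to total counts, and in size-factor normalized counts the means of these 4 genes differ by 1.10 to 1.19 times.

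*Slc30a1* (ENSMUSG00000037434, chr1:191906767-191913247, mm10), the plasma membrane zinc exporter, was higher after zinc and lower after Dex, and its 4 groups did not overlap. Normalized counts were 458, 549.7 and 658 in water-PBS livers and 858, 866 and 989.5 in zinc-PBS livers. They were 239.6, 251 and 229.5 in water-Dex livers and 445, 425 and 396 in zinc-Dex livers. The order of the means was therefore water-Dex (240.1 ± 10.7), zinc-Dex (422 ± 24.8), water-PBS (555 ± 100.1) and zinc-PBS (904 ± 73.8), with the narrowest gap between the highest zinc-Dex and the lowest water-PBS liver. Of 9574 genes averaging 50 normalized counts or more, 12.2% did not overlap in zinc-PBS against water-PBS and 21.4% in zinc-Dex against water-Dex. The share was 43.5% in water-Dex against water-PBS, 43.7% in zinc-Dex against water-PBS and 44.2% in zinc-Dex against zinc-PBS. Zinc raised *Slc30a1* by a log2 fold change of 0.70 (SE 0.13, adjusted p = 4.3e-05) in PBS-injected mice, 1.63-fold with a 95% interval of 1.37 to 1.94. It raised it by 0.81 (SE 0.14, adjusted p = 3.8e-06), or 1.76-fold, in Dex-injected mice.

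Dex lowered *Slc30a1* on either water. The log2 fold change was -1.21 (SE 0.14, adjusted p = 2.5e-17) on plain water and -1.10 (SE 0.13, adjusted p = 6.5e-16) on zinc water, so the transcript fell to 0.433 and 0.467 of its level. The combined treatment left *Slc30a1* below the control, at a log2 fold change of -0.39 (SE 0.13, adjusted p = 0.0142). This last call rested on single libraries, since the adjusted p rose to 0.0510 when water-PBS replicate 2 was left out, to 0.149 for water-PBS replicate 3 and to 0.0919 for zinc-Dex replicate 3. A fit of just these 6 libraries gave an adjusted p of 0.0620. Without water-PBS replicate 3 the log2 fold change was -0.26.

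*Slc30a10* (ENSMUSG00000026614, chr1:185454848-185468762, mm10), the manganese exporter, was lowest in mice given both agents. Normalized counts were 912, 703 and 702 in water-PBS livers, 513, 552 and 626 in zinc-PBS, 596, 562 and 747 in water-Dex, while zinc-Dex livers had 377, 423 and 297. All 3 zinc-Dex livers lay below the other 9. The zinc-PBS (564 ± 57.7) and water-Dex (635 ± 98.7) groups overlapped each other, and water-Dex also overlapped water-PBS (772 ± 121). In Dex-injected mice zinc lowered *Slc30a10*, with a log2 fold change of -0.80 (SE 0.16, adjusted p = 0.000399), to 0.575 of the water-Dex level with a 95% interval of 0.462 to 0.716. In PBS-injected mice the difference was -0.45 (95% interval -0.76 to -0.14) and did not pass (adjusted p = 0.343), although these groups did not overlap. Such separation of zinc-PBS from water-PBS was not rare, at 12.2% of the 9574 genes compared in this way.

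Averaged over PBS and Dex, with 6 mice against 6, zinc lowered *Slc30a10*, with a log2 fold change of -0.63 (SE 0.11, adjusted p = 1.8e-05), and raised *Slc30a1* by 0.76 (SE 0.09, adjusted p = 1.1e-12). Dex lowered *Slc30a10* on zinc water, with a log2 fold change of -0.63 (SE 0.16, adjusted p = 0.00102). On plain water the Dex difference was -0.28 (95% interval -0.59 to 0.03, adjusted p = 0.215), which ranged from -0.41 without water-Dex replicate 3 to -0.15 without water-PBS replicate 1, neither of which passed. Among the alternatives it passed only with total-count scaling (-0.47, adjusted p = 0.00983). Against water-PBS, the zinc-Dex group had a log2 fold change of -1.08 (SE 0.16, adjusted p = 4.5e-10), or 0.473 of the control. With Dex averaged over both waters, *Slc30a10* had -0.45 (adjusted p = 0.000403) and *Slc30a1* -1.15 (adjusted p = 3.0e-33). Summed cholangiocyte markers were 588 to 814 in water-Dex and 947 to 1164 in zinc-Dex livers. They were 731 to 839 in water-PBS and 657 to 1159 in zinc-PBS livers. The highest of the 5 markers averaged 763 normalized counts and the lowest 9.06, so the sum rested largely on a single gene. The part of these markers in the *Slc30a10* difference was not tested.

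**Figure D3:**
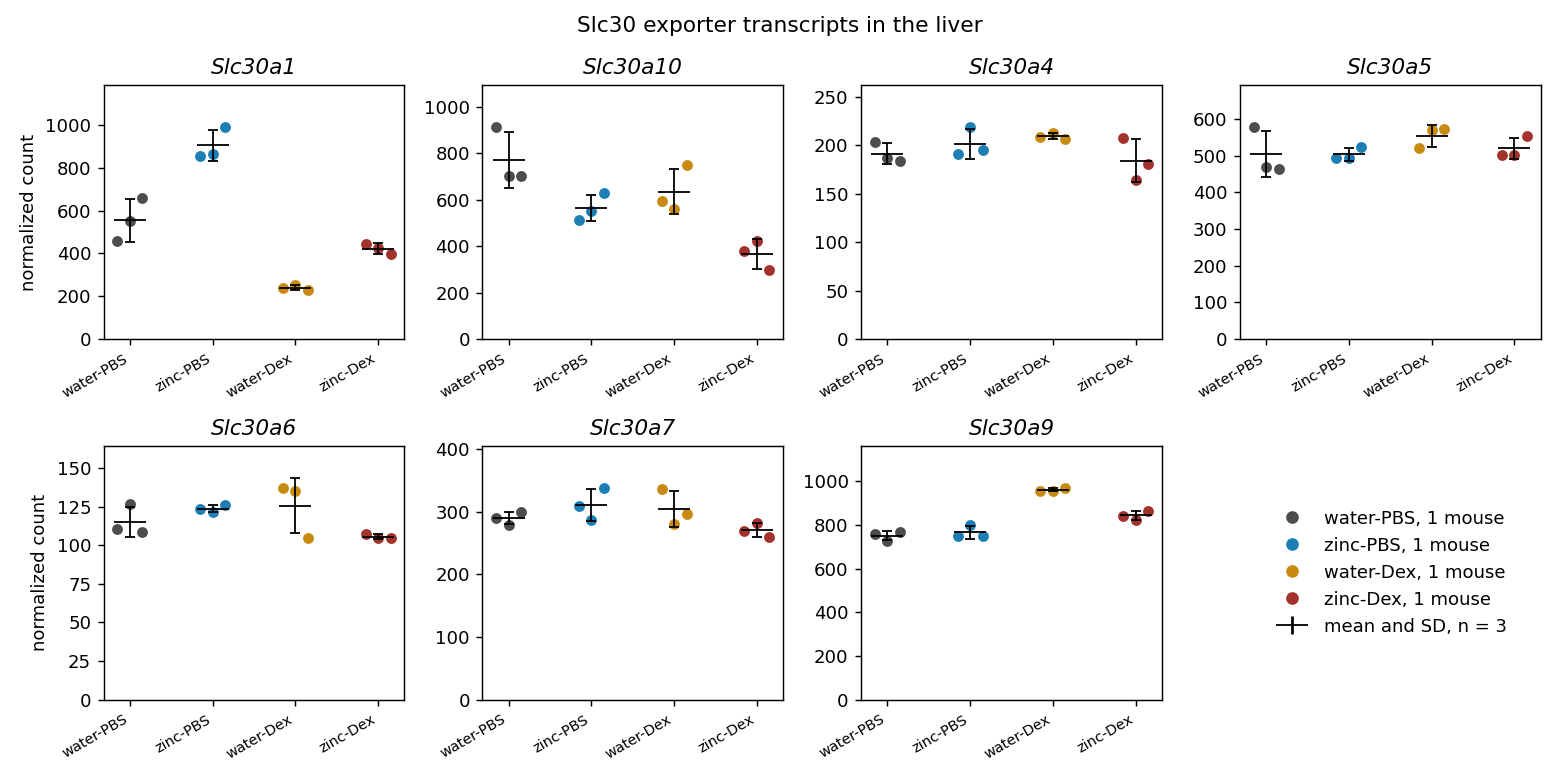
Normalized counts of the 7 exporters in each of the 12 livers, with the mean and SD of 3 mice, on axes from 0. *Slc30a1* shows 4 separate groups, *Slc30a10* is lowest in zinc-Dex, *Slc30a9* is highest in water-Dex, and the other 4 genes sit close together.

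The ratio of *Slc30a10* to *Slc30a1* needs no scaling between libraries. *Slc30a10* RPKM over *Slc30a1* RPKM was 1.79, 1.15 and 0.959 in water-PBS livers and 0.537, 0.573 and 0.569 in zinc-PBS livers. It was 2.23, 2.01 and 2.92 in water-Dex livers and 0.760, 0.894 and 0.674 in zinc-Dex livers. The 6 livers of zinc-treated mice were all below 0.9 and below all 6 livers of mice on plain water, and the water-Dex livers had the highest ratios.

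**Figure D4:**
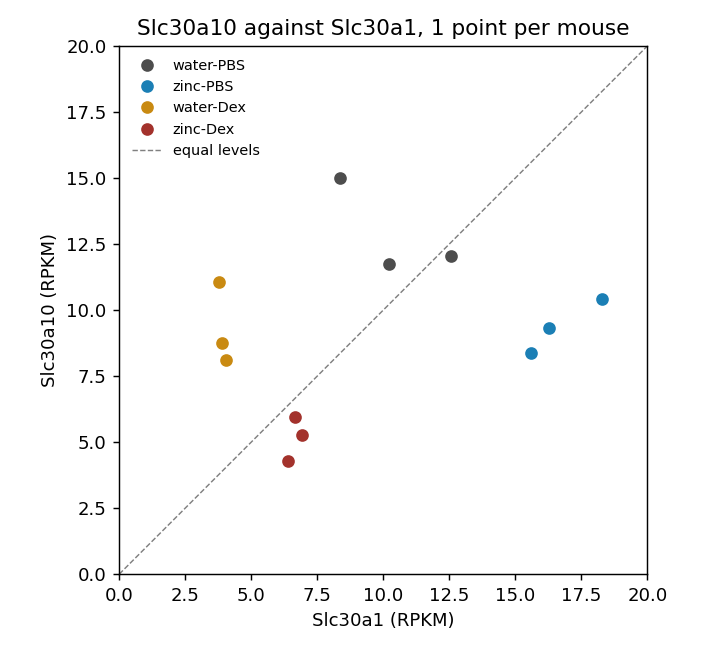
*Slc30a10* against *Slc30a1*, both in RPKM, 1 point per mouse, with a dashed line at equal levels. The 6 zinc-treated mice lie below the line, and all but 1 of the mice on plain water (water-PBS replicate 3, ratio 0.959) lie above it.

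*Slc30a9* (ENSMUSG00000029221, chr5:67306955-67358443), the mitochondrial zinc exporter, was higher in Dex-injected livers by a small step. Normalized counts were 760.3, 726 and 767 in water-PBS, 748, 799 and 749 in zinc-PBS, 956, 957 and 969 in water-Dex, with 843, 824 and 862 in zinc-Dex. Both Dex groups lay above both PBS groups, and water-Dex lay above zinc-Dex. Of the 9574 genes compared in this way, 43.5% did not overlap in water-Dex against water-PBS and 44.2% in zinc-Dex against zinc-PBS. The share was 43.7% in zinc-Dex against water-PBS and 21.4% in zinc-Dex against water-Dex. Dex raised *Slc30a9* by a log2 fold change of 0.36 (SE 0.07, adjusted p = 1.7e-05) on plain water. Averaged over both waters, Dex raised it by 0.25 (SE 0.05, adjusted p = 1.6e-05). On zinc water the difference was 0.14 (95% interval 0.00 to 0.28, adjusted p = 0.187). With total-count scaling both calls were lost, at 0.16 (adjusted p = 0.124) and 0.04 (adjusted p = 0.655), and the sign turned in zinc-Dex against zinc-PBS (-0.09) and against water-PBS (-0.07). Relative to the median of all genes under that scaling, the difference on plain water was 0.37. The summed hepatocyte markers given above, a sum that rested largely on a single gene, were also higher in Dex-injected livers. That sum was 1498781 to 1591515 in water-Dex and 1534768 to 1632938 in zinc-Dex livers, which overlapped. The part of the markers in the *Slc30a9* differences was not tested.

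The 4 exporters of vesicles and the secretory pathway passed in none of the 8 contrasts under size-factor scaling. *Slc30a4* (chr2:122681233-122702663), which loads zinc into vesicles, ranged from 164 to 219 normalized counts over the 12 livers, with group means of 191 in water-PBS, 201 in zinc-PBS, 209 in water-Dex and 184 for both agents. The ZnT5 gene *Slc30a5* (chr13:100802648-100833427) ranged from 465 to 578, with group means in the same order of 504, 504, 555 and 519.9. Its partner *Slc30a6* (chr17:74395608-74424221) ranged from 104 to 137, with means of 115, 124, 126 and 106. *Slc30a7* (chr3:115938973-116007406) had means of 289, 311, 304 and 270.3, and the zinc-Dex livers (259.5 to 282) lay below the zinc-PBS livers (287 to 338). Such separation was common, at 44.2% of the 9574 genes compared in this way in zinc-Dex against zinc-PBS. The ratio of the highest to the lowest group mean was 1.10 to 1.19 for these 4 genes, 1.28 for *Slc30a9*, 2.11 for *Slc30a10* and 3.77 for *Slc30a1*.

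For these 4 genes the zinc differences in PBS-injected mice lay between -0.00 and 0.11 on the log2 scale, and their 95% intervals reached from -0.21 to 0.41 at the widest. Zinc differences in Dex-injected mice were -0.18 for *Slc30a4*, -0.09 for *Slc30a5*, -0.25 for *Slc30a6* and -0.17 for *Slc30a7*. With total-count scaling, *Slc30a4* (-0.36, adjusted p = 0.0286), *Slc30a6* (-0.46, adjusted p = 0.0206) and *Slc30a7* (-0.43, adjusted p = 0.00181) passed in zinc-Dex against zinc-PBS. Relative to the median of all genes under that scaling they differed by -0.12, -0.22 and -0.19. *Slc30a7* also passed under it in zinc-Dex against water-PBS (-0.34, adjusted p = 0.0173) and with Dex averaged (-0.28, adjusted p = 0.00371).

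In zinc-PBS against water-PBS, 1 of the 7 exporters passed (*Slc30a1*), where 0.341% of all genes tested did. In zinc-Dex against water-Dex, 2 of 7 passed (*Slc30a1* and *Slc30a10*) and 1.35% of all genes. With zinc averaged, 2 of 7 passed and 2.47% of all genes, 1 of 7 being higher where 1.63% of all genes were, and 1 lower where 0.837% were. The Dex contrasts called far more genes. In water-Dex against water-PBS 2 of 7 passed (*Slc30a9* higher and *Slc30a1* lower), where 21.6% of all genes passed, 11.7% as higher and 9.91% as lower, a share near that of the exporters. The corresponding counts were 2 of 7 in zinc-Dex against zinc-PBS (background 20.1%), 2 of 7 in zinc-Dex against water-PBS (24.4%) and 3 of 7 with Dex averaged (28.8%).

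With the study's stricter rule, an absolute log2 fold change above 0.8 as well, *Slc30a1* passed in both Dex contrasts and in zinc-Dex against water-Dex, where 9.68%, 9.68% and 0.469% of all genes did. It also passed with Dex averaged (10.3%), and *Slc30a10* passed in zinc-Dex against water-PBS (11.2%). Neither exporter passed this rule in zinc-PBS against water-PBS (0.138%) or with zinc averaged (0.333%). In zinc-Dex against water-Dex *Slc30a10* was just short of it (-0.798) and *Slc30a1* just past it (0.815).

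The size of the zinc effect did not pass the test of dependence on Dex for any exporter. The interaction was 0.11 (95% interval -0.26 to 0.48) for *Slc30a1* and -0.34 (95% interval -0.79 to 0.10) for *Slc30a10*, both with an adjusted p = 0.999 in DESeq2. Of the 7 exporters 0 passed in DESeq2 and 0 in the edgeR quasi-likelihood test, and 1 and 2 respectively had an unadjusted p under 0.05. In DESeq2 it was *Slc30a9*, at -0.22 (95% interval -0.42 to -0.01, unadjusted p = 0.037, adjusted p = 0.999). Of all genes tested 0.0229% passed by adjusted p in DESeq2, and 0.0191% with the fold rule. The share with an unadjusted p under 0.05 is not given here, so the counts of 1 and 2 exporters have no background and are not read as a result. These intervals leave room for zinc effects that differ between PBS- and Dex-injected mice.

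**Figure D5:**
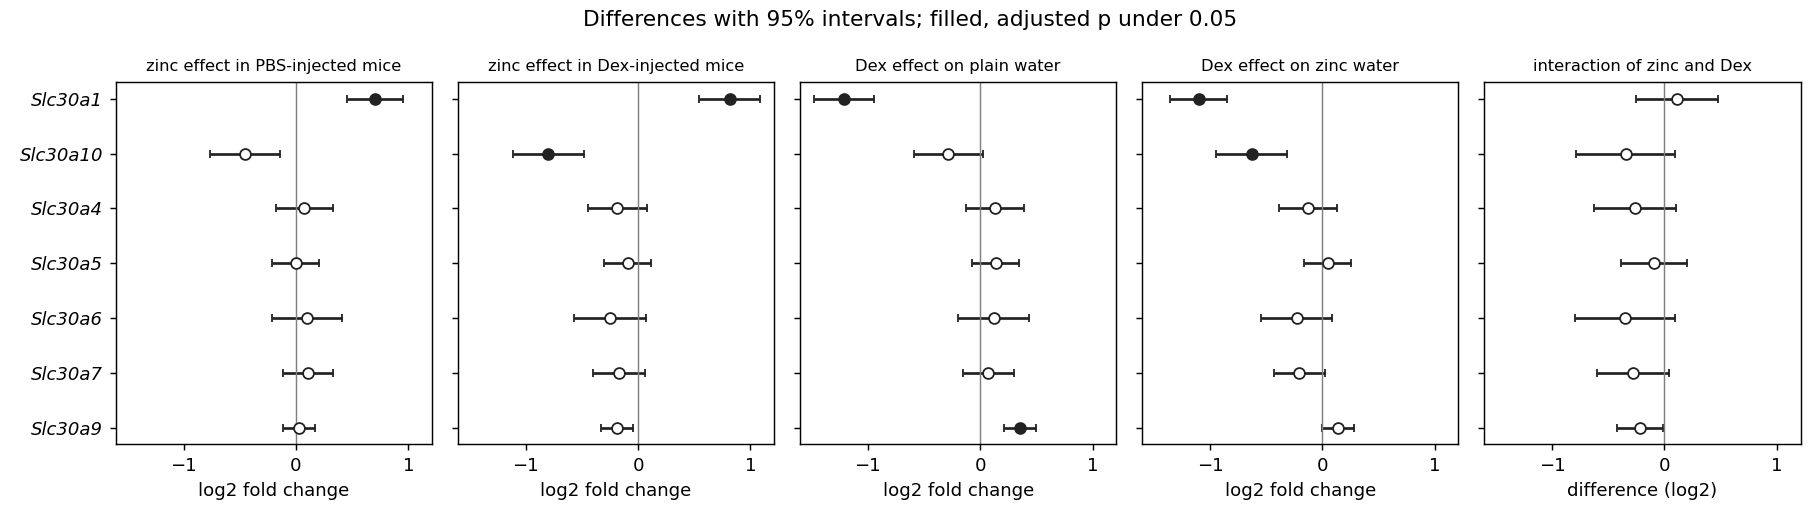
Log2 fold changes of the 7 exporters with 95% intervals for the effect of zinc, the effect of Dex and their interaction, with filled points where the adjusted p was under 0.05. *Slc30a1* is filled in all 4 single contrasts, to the right for zinc and to the left for Dex, *Slc30a10* in 2 of them and *Slc30a9* in 1, and none is filled for the interaction.

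The exporters did not move as 1 group over the 12 livers. Pearson's r of log2 normalized counts was 0.02 between *Slc30a1* and *Slc30a10*, -0.87 between *Slc30a1* and *Slc30a9*, and 0.52 between *Slc30a6* and *Slc30a7*. These points share libraries and the 4 group differences, so the values are descriptions. The 5 genes with a pattern most like *Slc30a1* among the 9573 other genes averaging 50 normalized counts or more were *Pou2f1* (a POU transcription factor, r = 0.977), *Cldn12* (a claudin, 0.974), *Hyal2* (a hyaluronidase, 0.962), *Sphk2* (a sphingosine kinase, 0.957) and *Mgat1* (an N-glycan transferase, 0.955), and 71 genes had an r above 0.9. For *Slc30a10* the nearest were *Mfsd11* (0.967), *Zranb2* (0.958), *Slc11a2* (0.938), *Chka* (choline kinase, 0.926) and *D17H6S53E* (0.921), and 8 genes had an r above 0.9. Group means of *Sphk2* were 396 normalized counts in water-PBS, 492 in zinc-PBS, 166 in water-Dex and 245 in zinc-Dex.

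The importers and buffers of zinc were read from a list of 14 ZIP genes, 4 metallothionein genes and *Mtf1*. With zinc averaged over PBS and Dex, 2 of the 15 genes tested were higher and 1 lower, where 1.63% and 0.837% of all genes were, and the list's median log2 fold change was -0.02 against -0.00 for all genes tested. The metallothioneins *Mt1* (2.36, adjusted p = 2.6e-45) and *Mt2* (3.04, adjusted p = 7.5e-29), which bind cytosolic zinc, were the higher ones. These averages join unequal effects. Zinc raised *Mt1* by 3.87 (adjusted p = 1.2e-60) and *Mt2* by 5.38 (adjusted p = 5.6e-42) in PBS-injected mice. In Dex-injected mice the difference was 0.84 for *Mt1* (adjusted p = 0.0189), and for *Mt2* it was 0.69 and did not pass (adjusted p = 0.476). The interaction passed for both, at -3.03 (adjusted p = 6.4e-17) for *Mt1* and -4.69 (adjusted p = 6.7e-16) for *Mt2*. The *Mt1* call in Dex-injected mice was lost under 10 of the 12 alternatives, each fit without 1 library among them (adjusted p from 0.161 to 0.473), and *Mt2* passed there only in a fit of just these 6 libraries (adjusted p = 2.8e-08). The importer gene *Slc39a4* was the lower one (-1.52, adjusted p = 6.5e-40), from 666 ± 95.3 normalized counts in water-PBS to 236 ± 22.5 in zinc-PBS and 214 ± 29.8 in zinc-Dex, and stood at 624 ± 97.3 in water-Dex.

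Under Dex the metallothioneins and *Slc30a1* had opposite signs. *Mt1* rose from 349 ± 122 normalized counts in water-PBS to 7558 ± 62.4 in water-Dex (log2 fold change 4.44, adjusted p = 1.7e-81), and stood at 5106 ± 1479 in zinc-PBS and 13573 ± 1379 in zinc-Dex. *Mt2* rose by 6.42 in the same Dex contrast (adjusted p = 9.7e-62). Of 16 listed genes tested there, 4 were higher, where 11.7% of all genes were, with a median of 0.02 against -0.01 for all genes. The other pair was *Slc39a14*, an importer of zinc, iron and manganese (0.84, adjusted p = 1.8e-10), and *Mtf1* (0.36, adjusted p = 0.0219). The *Mtf1* call was lost under 8 of the 12 alternatives run for it, among them total-count scaling (0.16, adjusted p = 0.367), the replicate block (adjusted p = 0.0758), a fit of just these 6 libraries (adjusted p = 0.0944) and the fit without water-PBS replicate 1 (adjusted p = 0.155), water-PBS replicate 2 (0.0890) or water-Dex replicate 1 (0.113), 2 (0.0677) or 3 (0.0638), over a range of adjusted p from 0.0141 to 0.367. These contrasts share the water-PBS livers with those of the exporters.

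Of 8 genes of manganese handling, 1 was lower with zinc averaged, where 0.837% of all genes were, and the list's median was -0.10. That gene was *Slc11a2*, the divalent metal transporter DMT1, with -0.44 (adjusted p = 0.00209), and it was also among the 5 genes most like *Slc30a10*. Its normalized counts were 308 ± 41.7 in water-PBS and 262 ± 28.8 in zinc-PBS, and 298 ± 23.5 in water-Dex against 192 ± 19.6 in zinc-Dex, so that, like *Slc30a10*, it was lowest in zinc-Dex. In zinc-Dex against water-Dex *Slc11a2* differed by -0.64 (adjusted p = 0.00223), a call lost without water-Dex replicate 1 (-0.57, adjusted p = 0.0535). In water-Dex against water-PBS 1 of the 8 was higher, a share near the 11.7% of all genes. It was the manganese importer gene *Slc39a14* (2782 ± 301 and 4977 ± 302 normalized counts in water-PBS and water-Dex). *Slc40a1*, which exports iron and manganese, differed by -0.04 in that contrast (adjusted p = 0.861) and by 0.030 without water-PBS replicate 2. The next largest differences of the list in that contrast were -0.18 for the importer gene *Slc39a8* and -0.18 for the Golgi gene *Tmem165*, and neither passed, although *Slc39a8* did with total-count scaling (-0.38, adjusted p = 0.00390).

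Of 5 ectoenzymes that acquire zinc in the secretory pathway, 2 were higher in water-Dex against water-PBS, where 11.7% of all genes were, and both are named with their values known. *Alpl*, tissue-nonspecific alkaline phosphatase, rose from 98.7 ± 8.40 to 179 ± 12.8 normalized counts (0.86, adjusted p = 2.0e-06), and *Enpp2*, autotaxin, from 819.8 ± 225 to 1290.5 ± 211 (0.65, adjusted p = 0.00364). The *Enpp2* call was lost without water-Dex replicate 2 (0.51, adjusted p = 0.0630). The rest of the list did not pass in water-Dex against water-PBS and was mixed in sign, with *Enpp1* at 0.14 (adjusted p = 0.394), *Nt5e* at 0.03 (adjusted p = 0.913) and *Enpp3* at -0.27 (adjusted p = 0.348). The transporters that supply this compartment, *Slc30a5*, *Slc30a6* and *Slc30a7*, differed by 0.14, 0.12 and 0.07 in the same contrast, with 95% intervals that include 0, and their signs turned with total-count scaling. Leaving out 1 library gave 0.085 to 0.25 for *Slc30a5* (highest without water-PBS replicate 1) and 0.054 to 0.24 for *Slc30a6* (lowest and highest without water-Dex replicates 1 and 3). *Slc30a7* was -0.0025 without water-Dex replicate 1. With zinc averaged the enzymes differed by -0.01 to 0.22, and none had an adjusted p below 0.413.

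Some exporter exons overlap genes on the opposite strand, and the strand setting of the counting is not given in the sources used here. *Slc30a10* shares 533 exon bases, 9.13% of its exon length, with *Gm2061*, which had 2 to 16 raw counts per library against 309 to 868 for *Slc30a10*. *Slc30a1* shares 468 exon bases with 1700034H15Rik, which had 0 to 3 counts, and *Slc30a4* shares 130 with 4930417H01Rik, which also had 0 to 3. *Slc30a7* overlaps the pseudogenes *Gm6649* (1165 bases) and *Gm43106* (637 bases), both at 0 counts.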

How the data were processed

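RNA of 12 mouse livers, 1 library per mouse and 4 groups of 3 by the labels, had been sequenced as single-end reads from a stranded TruSeq library. The authors mapped reads to mm10 with HISAT2 2.0.4 and deposited raw read counts per Ensembl gene from featureCounts, with no normalization, and 12 columns, all of them used. Trimmomatic and SAMtools are also named in the submitters' processing notes. The annotation release is not given in the sources used here, and GENCODE M21 gave symbols, coordinates and exon lengths for 54809 of 54838 identifiers. Multimapping reads had been left out, so reads that match copies of a gene are missing.

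DESeq2 1.42.0 in R 4.3.3 was fitted once to the 12 libraries with 1 coefficient per group, as the study's methods name DESeq2 with an FDR of 5%, with unshrunken Wald tests and Benjamini-Hochberg adjustment over all genes. The 95% intervals of log2 fold changes are normal intervals from the standard error. The alternatives were edgeR 4.0.16 (quasi-likelihood test), DESeq2 with TMM factors, a filter that kept genes reaching 10 counts in 3 or more libraries, a replicate block, only the 6 libraries compared, leaving out each library in turn, and a fold threshold of 0.8 on the log2 scale. Total-count scaling was added after the data were seen. The fits were tested on simulated data. No exact permutation test was run, since groups of 3 cannot give a p under 0.10, and p-values rest on the spread shared across genes. Replicates differed by 7.59 to 26.2 times counting noise (chi-square per degree of freedom), so none was a copy.

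RPKM used total counts and the union of exons. Likeness was Pearson's r of log2(normalized count + 1). Promoters came from the RefSeq table for GRCm38.p6, and all 7 genes matched by symbol. The text names the 7 exporters, the other *Slc30* genes of the table, the 5 genes most like *Slc30a1* and *Slc30a10*, and from the zinc and manganese lists those that passed in a zinc contrast or had the 3 largest changes in water-Dex against water-PBS. Outside this rule, *Slc40a1*, *Mtf1* and the ectoenzymes were chosen once their values were known. The exporters and lists were chosen with earlier results of these data known.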

Additional observations from a re-analysis of the deposited data

Results flagged for a closer look

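The effect of zinc on the metallothionein genes differed between PBS- and Dex-injected mice by the interaction term of the DESeq2 fit. The interaction was -3.03 on the log2 scale (adjusted p = 6.4e-17) for *Mt1* and -4.69 (adjusted p = 6.7e-16) for *Mt2*. Over the alternatives it ranged from -3.25 to -2.76 and from -5.22 to -4.35, and it passed under all 17 run for each gene.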

How the results depend on the processing

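The direction and call of *Slc30a1* held under each alternative tried, other than the fold threshold, in the single zinc and Dex contrasts, from 0.58 to 0.84 for zinc in PBS-injected mice, while its call in zinc-Dex against water-PBS did not, and 1 exporter instead of 2 passed there with only the 6 libraries compared. Leaving out 1 library gave 1 to 2 exporters in that contrast and changed no other count. Adding the fold threshold of 0.8 left 0 exporters in zinc-PBS against water-PBS and with zinc averaged, and 1 in every other contrast but the interaction. *Slc30a1* in zinc-PBS exceeded that threshold only without water-PBS replicate 3 (0.84).

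With total-count scaling, 5 exporters passed in zinc-Dex against zinc-PBS, and 3 instead of 2 in zinc-Dex against water-PBS. Signs turned there for *Slc30a5* (-0.18) and *Slc30a9* (-0.087), in water-Dex against water-PBS for *Slc30a4* (-0.066), *Slc30a5* (-0.057), *Slc30a6* (-0.076) and *Slc30a7* (-0.12), in zinc-Dex against water-PBS for *Slc30a5* (-0.19) and *Slc30a9* (-0.072), and with Dex averaged for *Slc30a4* (-0.21) and *Slc30a5* (-0.12). The median of all genes moved by -0.19 to -0.24 in these contrasts under that scaling. The share of all genes that passed under it is not given here, so these counts of exporters cannot be set against a background. With Dex averaged, *Slc30a4* was also -0.0051 with edgeR and -0.0026 with the low-count filter.

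Leaving out single libraries turned the sign of differences near 0 that did not pass. The ranges were -0.055 to 0.11 for *Slc30a5* and -0.0036 to 0.044 for *Slc30a9* in zinc-PBS against water-PBS, and -0.0025 to 0.13 for *Slc30a7* in water-Dex against water-PBS. In zinc-Dex they were -0.14 to 0.019 for *Slc30a4* and -0.0073 to 0.15 for *Slc30a5* against water-PBS, and -0.00094 to 0.078 for *Slc30a5* against zinc-PBS. The interaction of *Slc30a1* ranged from -0.028 to 0.23. Averages ranged from -0.073 to 0.0071 (*Slc30a5*) and -0.064 to 0.0055 (*Slc30a7*) for zinc, and from -0.044 to 0.038 (*Slc30a4*) and -0.087 to 0.0048 (*Slc30a6*) for Dex. For *Slc40a1* in water-Dex against water-PBS the leave-one-out value reached 0.030 without water-PBS replicate 2.

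A replicate block changed no count of exporters passing (1 in zinc-PBS against water-PBS, 2 in water-Dex against water-PBS). Same-numbered libraries did not deviate together (r from -0.20 to 0.19 over 18 pairs), and 3 of 12 correlated best with their own number. Counting depth limits the *Slc30a2*, *Slc30a3* and *Slc30a8* values, for which no contrast was read.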
